A study of Mus musculus with 68 samples.

Results

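Neuropeptides are the co-transmitters of midbrain dopamine (DA) neurons, and their transcripts were followed here across single neurons of the ventral tegmental area (VTA). The 10 genes were chosen by symbol, 10 of the 36172 genes in the table: Cck, Nts, Grp, Gal, Vip, Penk, Pdyn, Tac1, Adcyap1 and Cartpt. RNA was collected by Patch-seq, in which the content of a neuron is drawn into the recording pipette after patch-clamp recording. The table held 68 neurons of 12-month-old mice, 33 labelled 3xTg and 35 labelled WT. The 3xTg mice were homozygous for their human transgenes, which include APP with the Swedish mutation and tau P301L, and the WT controls were not their littermates but a non-transgenic line of matched mixed strain. Mice of both sexes were used. Neurons were picked by their position and their firing, so the sample is not a census of the VTA. Since no label ties a cell to a mouse, the genotypes were taken as 1 sample each and no test between them was made. A range or SD across cells describes cells and not animals.

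Each neuropeptide is cut from a larger precursor inside dense-core vesicles. Prohormone convertases cleave at pairs of basic residues, carboxypeptidase E trims the ends, and for many peptides the enzyme PAM turns a final glycine into a C-terminal amide. The peptides act on G protein-coupled receptors, usually more slowly and farther from the release site than a classical transmitter. Cholecystokinin (Cck) and neurotensin (Nts) are the classical peptide partners of dopamine. Gastrin-releasing peptide (Grp), vasoactive intestinal peptide (Vip) and PACAP (Adcyap1) are known from subsets of medial VTA neurons. Galanin (Gal), the opioid precursors of enkephalin (Penk) and dynorphin (Pdyn), the substance P precursor (Tac1) and CART (Cartpt) are better known from neighbouring or target regions.

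The processing signal can be read in the genes themselves. The coding stretches below end with a glycine codon and a pair of basic codons, in capitals, directly after the last codons of the mature peptide. They are shown for the counted members that carry such a site, read from GENCODE M21 transcripts on GRCm38 (the build also called mm10).
Cck, exon 3, chr9:121490098-121490136, minus strand: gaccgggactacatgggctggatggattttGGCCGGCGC
Adcyap1, exon 5, chr17:93204041-93204079, plus strand: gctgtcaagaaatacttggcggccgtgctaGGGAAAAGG
Adcyap1, exon 5, chr17:93204074-93204112, plus strand: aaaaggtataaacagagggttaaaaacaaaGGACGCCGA
Tac1, exon 3, chr6:7556735-7556773, plus strand: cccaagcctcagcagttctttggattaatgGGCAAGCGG
Tac1, exon 6, chr6:7559101-7559139, plus strand: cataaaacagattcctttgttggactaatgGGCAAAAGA
The stretch of Cck encodes the end of the CCK octapeptide, those of Adcyap1 the ends of PACAP27 and PACAP38, and those of Tac1 the ends of substance P and neurokinin A. Coding sequences of Penk, Pdyn and Cartpt held 0 such sites. Penk had 12 runs of paired basic codons in 268 codons, the most of the 9 members read. The sequence of Grp was not read here.

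Upstream sequence was read for counted members and for members at 0. The cAMP response element (CRE) is the letters TGACGTCA, and its core is TGACG or the reverse complement CGTCA. Windows of 250 bases before the start of the gene, from RefSeq on GRCm38.p6, were read for 8 members in 10 windows. The core was present in 6 of the 8 members and in 7 of the 10 windows, of which the 2 windows of Adcyap1 share 99 bases and the same site. It was present in 17.8% of all 32851 windows of the same length. TATAAA was present in 2 of the 10 windows and in 12.4% of all. Below, the core of the CRE and TATAAA are in capitals, for a pair of counted members (Cck, Cartpt) and a pair with no count (Nts, Vip).
Cck, chr9:121495695-121495944, minus strand: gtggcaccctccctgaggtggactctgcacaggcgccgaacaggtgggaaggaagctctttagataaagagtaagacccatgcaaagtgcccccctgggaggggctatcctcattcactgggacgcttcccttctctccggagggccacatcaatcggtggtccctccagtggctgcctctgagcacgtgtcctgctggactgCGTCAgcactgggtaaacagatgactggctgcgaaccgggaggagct
Cartpt, chr13:99900684-99900933, minus strand: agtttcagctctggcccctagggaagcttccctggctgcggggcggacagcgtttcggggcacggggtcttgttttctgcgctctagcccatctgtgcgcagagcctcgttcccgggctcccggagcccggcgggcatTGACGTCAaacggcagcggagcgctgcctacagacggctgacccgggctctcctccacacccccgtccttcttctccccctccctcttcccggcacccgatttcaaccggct
Nts, chr10:102490419-102490668, minus strand: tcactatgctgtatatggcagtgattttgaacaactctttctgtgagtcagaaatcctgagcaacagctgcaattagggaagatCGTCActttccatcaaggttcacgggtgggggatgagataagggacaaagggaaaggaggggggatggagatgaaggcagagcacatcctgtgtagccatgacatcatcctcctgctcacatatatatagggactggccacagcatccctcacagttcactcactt
Vip, chr10:5638968-5639217, plus strand: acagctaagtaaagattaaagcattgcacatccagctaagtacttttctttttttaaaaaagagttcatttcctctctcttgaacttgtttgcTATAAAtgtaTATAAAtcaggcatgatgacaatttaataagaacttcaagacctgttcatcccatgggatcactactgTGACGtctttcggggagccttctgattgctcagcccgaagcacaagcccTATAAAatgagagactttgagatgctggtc
Cartpt held the full CRE, which 1.55% of all windows held, and there the core is read on both strands of the same 8 letters. The core began 47 bases before the start in Cck, 79 in Vip and 166 in Nts, so it was present on both sides of the split between counted and uncounted members. All counted members that were read (Adcyap1, Cartpt, Cck, Tac1) held it. The members without it, Gal and Pdyn, were both uncounted. These matches describe letters and not bound sites.

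By the study's methods, libraries were kept for having Th, Slc6a3 and Slc18a2 and for lacking Pvalb, Tmem119, P2ry12 and Aldh1l1, so the presence of the first set in all 68 cells is no finding. Ddc, which was no part of that choice, was counted in every cell. Totals ranged from 492505 to 1678624 counts per cell, and the median number of genes with a count was 8511 in 3xTg and 7476 in WT cells. The numbers in the cells' labels form runs of a single genotype, and their meaning is not given. The median number of genes was 7648 and 9308 in the 3xTg runs (labels 24 to 55, 21 cells, and 76 to 92, 12 cells), and 5233, 8441 and 6216 in the WT runs (1 to 22, 17 cells; 57 to 74, 15 cells; 94 to 96, 3 cells). Even so, 10 cells, 5 of each genotype, had a count of at least 1 of the 4 exclusion markers. Other genes of other cell types were wider. Mbp of oligodendrocytes was counted in 32 3xTg and 35 WT cells, the microglial Cx3cr1 in 29 and 30 and C1qb in 10 and 13 (2797 and 10935 counts), and the astrocyte gene Slc1a3 in 5 and 8 (431 and 4428 counts). The astrocyte gene Aldh1l1 and the endothelial genes Cldn5 and Pecam1 were at 0. Summed per cell, the 5 astrocyte markers ranged from 0 to 272 CPM in 3xTg and from 0 to 2410 CPM in WT, with a median of 0 in both.

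The 10 genes fell into 3 sets by the share of cells with at least 1 count. Cck was counted in 58 of 68 cells (85.3%, exact Clopper-Pearson 95% interval 74.6% to 92.7%) and Grp in 40 (58.8%, 46.2% to 70.6%). Adcyap1 was counted in 15 cells (22.1%, 12.9% to 33.8%), Cartpt in 13 (19.1%, 10.6% to 30.5%), Penk in 5 (7.35%, 2.43% to 16.3%) and Tac1 in 3 (4.41%, 0.919% to 12.4%). Nts, Gal, Vip and Pdyn had no count in any of the 68 cells. The intervals of Cck and Grp did not overlap each other or that of Adcyap1, whereas neighbours from Adcyap1 to Tac1 overlapped. These intervals cover counting error over cells. Of the 17940 genes with a count, 18.2% were counted in at least 80% of cells, and Cck was the 1 member among them. Per kilobase of exon, the summed level over all cells was 192 CPM (counts per 1000000 counts) per kb for Cck and 103 for Grp, against 13.7 for Cartpt, 4.76 for Penk, 3.27 for Adcyap1 and 0.598 for Tac1. Cartpt thus stood above Adcyap1 per length although it was counted in fewer cells.

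**Figure D1:**
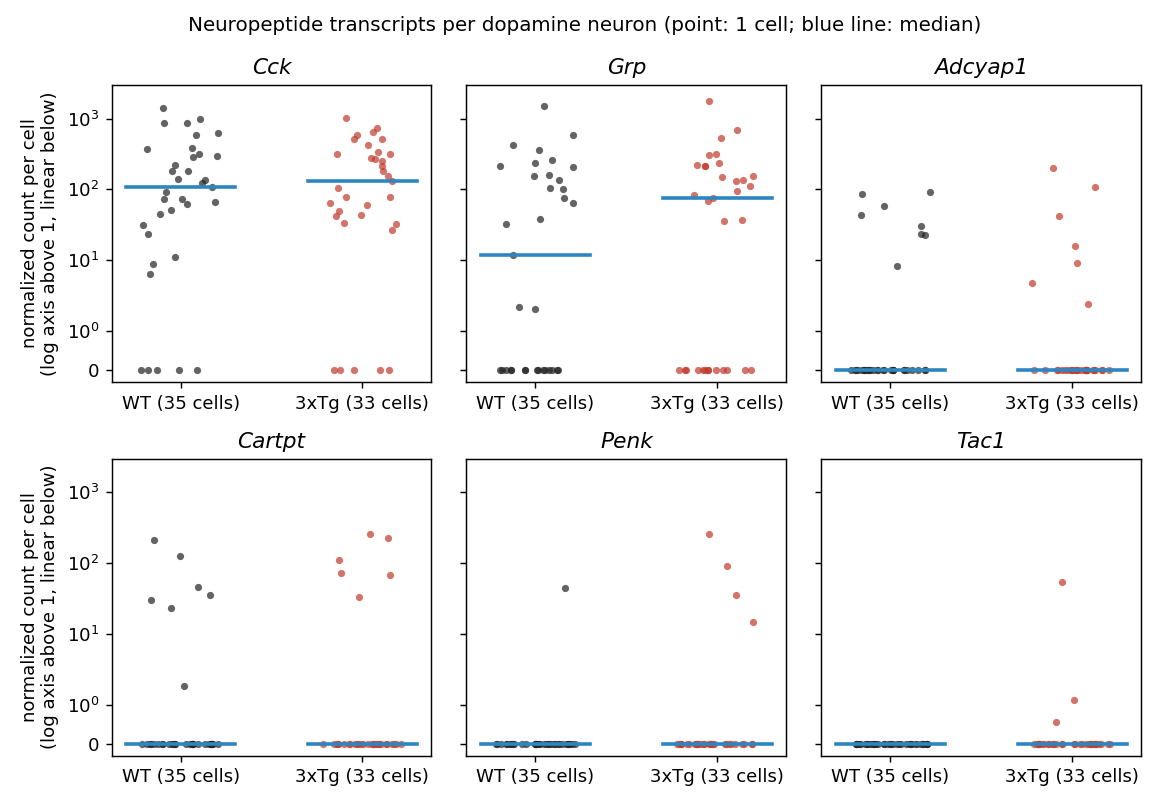
Normalized count (log axis above 1, linear below) of the 6 counted members in each of the 35 WT and 33 3xTg neurons, 1 point per cell, with the median as a blue line. Cck was counted in most cells of both genotypes, Grp had 28 cells at 0 and 27 at 100 or above with 13 in between, and the medians of the other 4 genes were 0.

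Cck (chr9:121489824-121495689 in mm10, minus strand) encodes the precursor of cholecystokinin. Normalized counts (deposited counts divided by the size factor of the cell) ran from 0 over a median of 130 to 1019 in 3xTg cells, and from 0 over a median of 108 to 1421 in WT cells. The genotypes overlapped over almost the whole range. Of the 68 cells, 10 were at 0, 2 lay above 0 and below 10, 20 lay between 10 and 100, 33 between 100 and 1000, and 3 at or above 1000. The cells at 0 were 5 of each genotype. Among cells with a count the median was 168, at percentile 91.7 of the same value over the 11414 genes counted in at least 14 cells. The highest counts were 1161 in WT 22 and 1105 in WT 59. Cells with Cck had a median of 7989 genes and cells without it 6611. The median totals went the other way, 1.03e+06 counts with Cck and 1.14e+06 without. Over the 68 cells the rho of Cck with the number of genes was -0.15. The 5 astrocyte markers summed to 0 to 2410 CPM in the 58 cells with Cck, where 4 were counted, and to 0 to 26.3 CPM in the 10 without, where 2 were, with a median of 0 in both. The 6 microglial markers had a median of 24.8 CPM (0 to 2870) in cells with Cck and 64.6 CPM (0 to 4211) in cells without. The part of these markers was not tested.

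Grp encodes gastrin-releasing peptide, an agonist of the bombesin receptor GRPR. Normalized counts ran from 0 over a median of 75.5 to 1790 in 3xTg cells, and from 0 over a median of 11.7 to 1495 in WT cells. The cells at 0 were 13 of 33 and 15 of 35. The pattern was on or off, since 28 cells were at 0, 2 lay below 10, 11 between 10 and 100, 25 between 100 and 1000 and 2 above. Of the cells with a count of Grp 5% had fewer than 10 counts, at percentile 16.8 of the genes in at least 14 cells. For Cck this was 3.45% and for the median gene 18.8%, so the gap was not particular to Grp. In the cells with a count the median was 153 in 3xTg and 145 in WT, and over both genotypes 152, at percentile 90.4 of those genes. Cells with and without Grp had nearly the same median number of genes, 7896 and 7979. Summed markers of microglia had a median of 14.8 CPM (0 to 1628) in cells with Grp, where 5 of the 6 markers were counted, and 56.3 CPM (0 to 4211) in cells without, where 6 were. For the 5 oligodendrocyte markers the medians were 34.1 CPM (5.66 to 1378) and 87.8 CPM (9.44 to 2540). The part of these markers in the Grp pattern was not tested.

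Adcyap1 (chr17:93199422-93205489, plus strand) encodes PACAP, a ligand of the receptor ADCYAP1R1. In 3xTg cells its counts were 199 in 3xTg 29, 124 in 3xTg 37, 42 in 3xTg 48, 33 in 3xTg 92, 16 in 3xTg 79, 7 in 3xTg 45 and 4 in 3xTg 30. In WT cells they were 99.9 in WT 63, 84 in WT 60, 49.7 in WT 65, 48 in WT 57, 36 in WT 21, 35 in WT 22, 30 in WT 59 and 11.9 in WT 67. The genotypes overlapped, with the 2 highest counts in 3xTg and none of the WT positives below 10. The median normalized count of the cells with a count was 16 in 3xTg and 36.5 in WT, and 30.2 over both, at percentile 47.5 of those genes. Cells with Adcyap1 had a median of 8965 genes and cells without it 7476, and the part of this difference was not tested.

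Cartpt (chr13:99898483-99900683, minus strand) encodes the CART peptides. Its counts were 249 in 3xTg 84, 194 in 3xTg 81, 117 in 3xTg 85, 100 in 3xTg 77, 77 in 3xTg 55 and 49.5 in 3xTg 90. In WT cells they were 173 in WT 57, 114 in WT 58, 53 in WT 8, 41 in WT 15, 37 in WT 21, 35.9 in WT 10 and 2 in WT 72. Here too the genotypes overlapped. The cells were unevenly spread over the label runs, with 1 of 21 cells in 3xTg 24 to 55 and 5 of 12 in 3xTg 76 to 92, against 4 of 17 and 3 of 15 in the WT runs 1 to 22 and 57 to 74.

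Penk (chr4:4133536-4138445, minus strand) and Tac1 (chr6:7555071-7562973, plus strand) were rare. Penk, the enkephalin precursor, had 258 counts in 3xTg 29, 91 in 3xTg 48, 48 in 3xTg 91, 17 in 3xTg 37 and 74 in WT 64. All 5 positive cells thus had more than 10 counts, and the WT value lay inside the range of the 3xTg values. Tac1, the precursor of substance P, had 50.3 counts in 3xTg 38 and 1 count each in 3xTg 49 and 3xTg 79. Its presence above single counts rests on 1 cell.

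Nts (chr10:102481756-102490418), Gal (chr19:3409917-3414457), Vip (chr10:5639218-5647614) and Pdyn were listed at 0 in all 33 3xTg and all 35 WT cells. A count of 0 in 68 cells allows a share of up to 4.41% of cells with a count by the rule of 3 counts, and up to 5.28% by the exact Clopper-Pearson interval. For 3xTg alone the limits are 9.09% and 10.6%, and for WT alone 8.57% and 10%. Of 22013 protein-coding genes in the table, 26.2% had no count in any cell, which is the background for a 0. The table places Pdyn at chr2:129688001-129689868, a shorter span than the GENCODE gene at chr2:129686565-129699844, and reads outside the listed span may not have been counted.

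**Figure D2:**
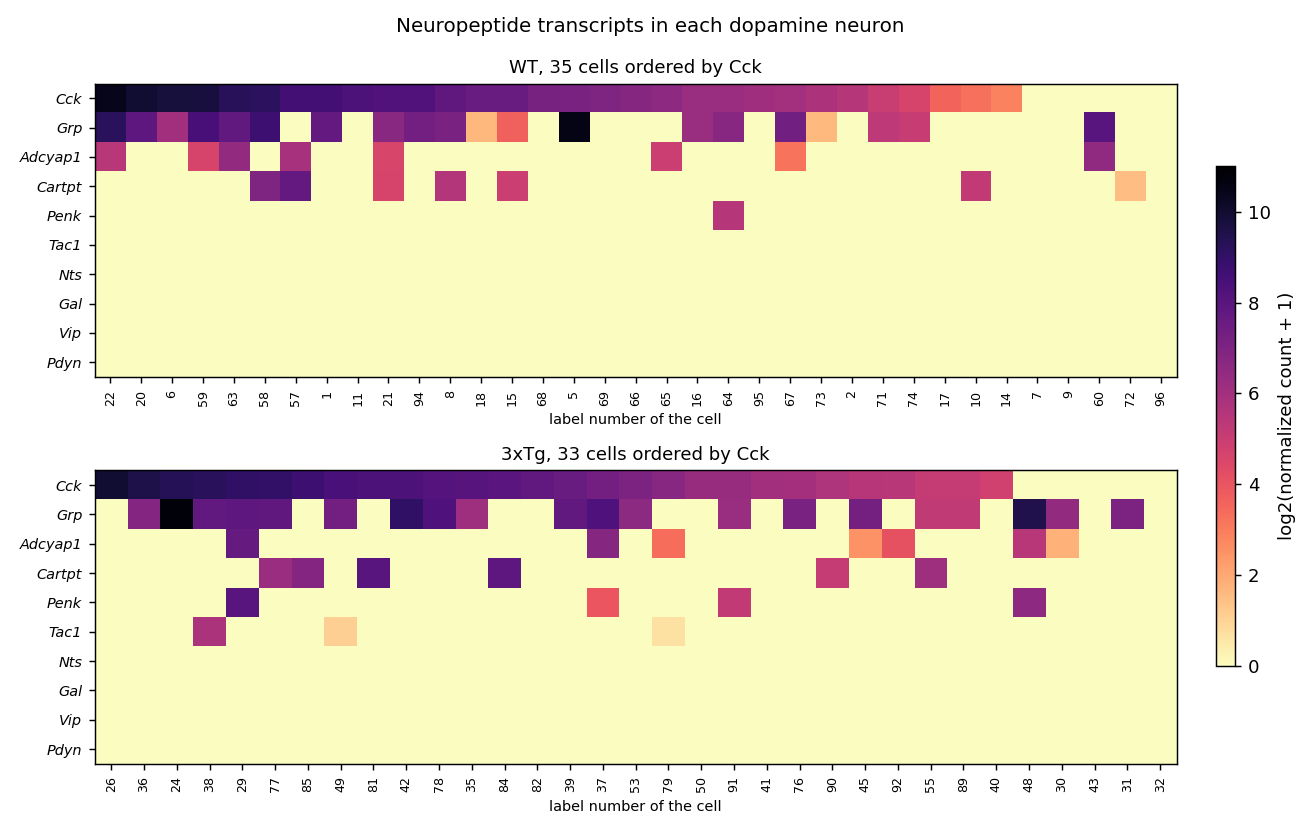
Heat map of log2(normalized count + 1) for the 10 genes (rows) in 35 WT cells (top) and 33 3xTg cells (bottom), each ordered by Cck, with the label number of each cell below. Grp filled most of the left side, Adcyap1, Cartpt and Penk filled scattered cells, and the last 4 rows were empty in both genotypes.

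The counts of the rarer peptides sat in a few cells. The 3 highest cells held 19.0% of all Cck counts and 31% of all Grp counts. They held 51.6% for Adcyap1, 49.6% for Cartpt, 86.7% for Penk and 100% for Tac1. The median over the 11414 genes counted in at least 14 cells was 27.9%, so Cck lay at percentile 24.7, Grp at 57.1 and Adcyap1 at 88.3. Over 50% of the counts lay in 3 cells for 3 members (Adcyap1, Penk, Tac1), against 13% of the genes counted in at least 14 cells and 36.2% of all genes with more than 3 counts in a genotype. The 12 highest cells were needed to reach 50% of the Cck counts, 7 for Grp, 4 for Cartpt, 3 for Adcyap1 and 1 each for Penk and Tac1. A gene counted in few cells has its counts in few cells by construction, so for Penk and Tac1 the share adds little to the number of cells.

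**Figure D3:**
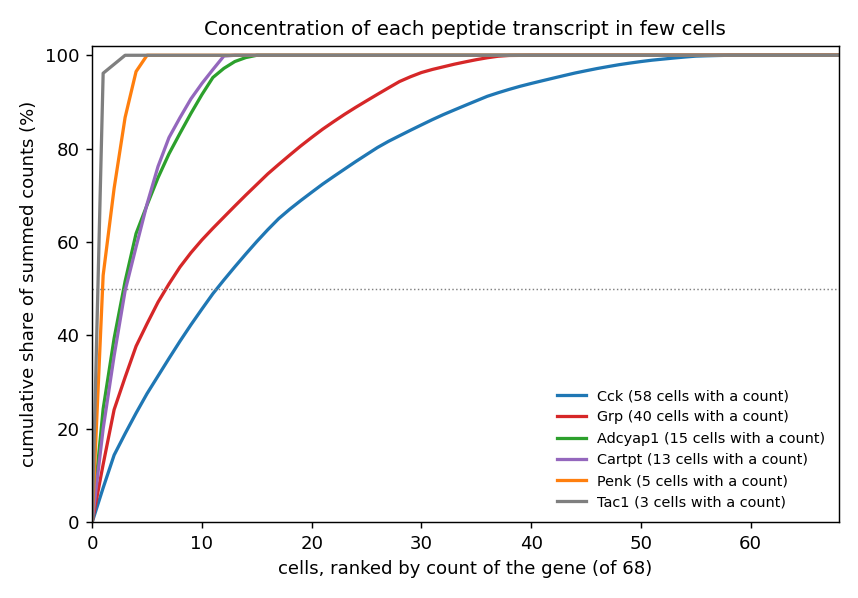
Cumulative share of the summed counts of each gene (in percent) against cells ranked by their count of that gene, for the 6 counted members. The curve of Cck reached the dotted line at 50% with 12 cells and that of Grp with 7, whereas those of Penk and Tac1 passed it with 1.

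Most neurons carried a small set of the peptides. Of the 68 cells, 5 had none of the 10 transcripts, 15 had 1, 28 had 2, 17 had 3 and 3 had 4. Cck and Grp were counted together in 36 cells, Cck alone of the pair in 22, Grp alone in 4 and neither in 6. Across the 68 cells their normalized counts had a Spearman rho of 0.40, and within the 36 cells with both a rho of 0.60. All points share the sequencing depth and gene number of the cell, so these values are descriptions. Adcyap1 was accompanied by Grp in 11 of its 15 cells (73.3%), where 54.7% of the other 53 cells had Grp. At a minimum of 10 counts for both genes the shares were 75% and 44.4% in WT and 60% and 60.7% in 3xTg. All 5 Penk cells had Grp, where 55.6% of the cells without Penk had it. Of the Penk cells 3 (3xTg 29, 3xTg 37 and 3xTg 48) had Adcyap1, where 19.0% of the cells without Penk had it. The cell 3xTg 29 carried 519 counts of Cck, 258 of Penk, 233 of Grp and 199 of Adcyap1, and held the highest count of Penk and of Adcyap1 in the table. No cell had Cartpt together with Penk. Cartpt was found with Grp in 6 of 13 cells (46.2%), against 61.8% of the others, and with Adcyap1 in 2. In 3xTg it was with Grp in 2 of 6 cells, against 18 of the other 27, and in WT in 4 of 7, against 16 of the other 28, the same share.

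The cells that carried a peptide were described by their subtype markers, and a marker could go with more than 1 peptide. Aldh1a1, the retinaldehyde dehydrogenase of a ventral DA subtype, was counted in 35 of 40 Grp cells (87.5%) and in 15 of 28 cells without Grp (53.6%), with a rho of 0.51 over 68 cells. In 3xTg the shares were 90% and 38.5%, and in WT 85% and 66.7%. At a minimum of 10 counts for both genes they were 80% and 23.1% in 3xTg but 77.8% and 70.6% in WT. Otx2, a transcription factor of the medial VTA, was counted in 14 of 40 Grp cells (35%) and 1 of the other 28 (3.57%), and the share in Grp cells was 35% within either genotype. Adcyap1 cells had these markers as well, Aldh1a1 in 86.7% against 69.8% of the others and Otx2 in 40% against 17%. Neurod6, a transcription factor of a ventromedial subtype, was counted in 12 of 15 Adcyap1 cells (80%) and in 28.3% of the others. This was 8 of 8 WT and 4 of 7 3xTg cells. In Grp cells it was 50%, against 25% of the cells without Grp. At a minimum of 10 counts for both genes, Neurod6 was again in 8 of 8 WT Adcyap1 cells, and in 2 of 5 3xTg Adcyap1 cells (40%, against 28.6% of the others). Slc17a6, the vesicular glutamate transporter VGLUT2 that marks DA neurons able to release glutamate, was counted in 8 of 15 Adcyap1 cells (53.3%) and 11.3% of the others. Lpl, a lipase gene used as a marker of ventromedial DA neurons, was counted in every cell, at a median normalized count of 321 in Adcyap1 cells and 50.2 in the others.

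All 5 Penk cells had Slc17a6, Aldh1a1 and the neurokinin receptor Tacr3. Of the 63 cells without Penk, 9 (14.3%) had Slc17a6, but 71.4% had Aldh1a1 and 66.7% had Tacr3. At a minimum of 10 counts for both genes, Slc17a6 was again in 5 of 5 Penk cells and in 9.52% of the others. Penk cells had a median of 9312 genes and the others 7832, whose part was not tested. Tacr3 was counted in 13 of 13 Cartpt cells and in 61.8% of the others. Sox6, a factor of lateral DA neurons, was counted in 6 of 13 Cartpt cells (46.2%) and in 18.2% of the others, but this held in 3xTg (5 of 6 cells against 22.2%) and not in WT (1 of 7, 14.3%, against 14.3%). Cartpt cells also had Slc17a6 in 5 of 13 (38.5%, against 16.4%) and Neurod6 in 53.8% (against 36.4%). For Cck, Sox6 was in 16 of its 58 cells and in 0 of the 10 cells without Cck. Otx2 (24.1% against 10%) and Tacr3 (70.7% against 60%) also had the higher share with Cck. Aldh1a1 (70.7% against 90%), Slc17a6 (17.2% against 40%) and Neurod6 (37.9% against 50%) had the lower share with Cck. The comparison rests on only 10 cells without Cck. The rho of Cck with Th, the rate-limiting enzyme of dopamine synthesis, was 0.42. The GABA neuron genes Gad1 and Slc32a1 were counted in 11 and 5 of the 68 cells, and of the Penk cells 1 had Gad1 and 0 had Slc32a1. Gad2 of the same list was counted in all 68 cells (920 counts in 3xTg and 1167 in WT), the 5 Penk cells included. Gad1 was counted in 5 of 15 Adcyap1 cells (33.3%) and in 11.3% of the others, and its part was not tested. Pairs were looked at after their values were known, and no test was made.

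**Figure D4:**
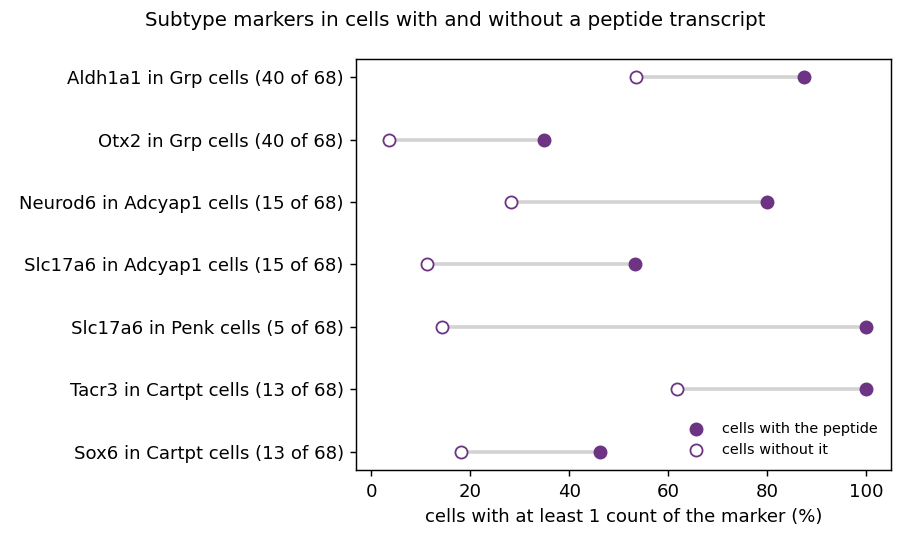
Share of cells (in percent) with at least 1 count of a DA subtype marker among cells with a peptide transcript (filled circles) and without it (open circles), over both genotypes. The widest gap was that of Slc17a6 between Penk cells (100%) and the others (14.3%), which rests on 5 cells.

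Between genotypes the shares of cells were close for the broadly counted members. Cck was counted in 28 of 33 3xTg cells (84.8%, 68.1% to 94.9%) and in 30 of 35 WT cells (85.7%, 69.7% to 95.2%). Grp had 20 cells in each, a share of 60.6% in 3xTg (42.1% to 77.1%) and 57.1% in WT (39.4% to 73.7%). Adcyap1 was counted in 7 and 8 cells, Cartpt in 6 and 7, Penk in 4 and 1, and Tac1 in 3 and 0. No member differed by 20 percentage points or more. For Penk, Tac1 and the 4 members at 0 the number of cells with a count allowed no such difference, so the comparison concerns the other 4. Of the 11414 genes counted in at least 14 cells, 17.3% did, 16.7% higher and 0.587% lower in 3xTg, and of the 15958 genes with more than 3 counts in a genotype 12.9% did, 12.4% higher and 0.47% lower.

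In summed counts Cck stood at 198 CPM in 3xTg (exact Poisson interval 194 to 203) and 249 CPM in WT (244 to 254), a log2 ratio of -0.33. Grp stood at 148 CPM (144 to 152) and 133 CPM (129 to 137), a log2 ratio of 0.16. The values of Adcyap1 were 11.6 and 11.6 CPM, those of Cartpt 21.4 and 13.4 CPM (log2 ratio 0.68), and those of Penk 11.3 and 2.18 CPM (log2 ratio 2.37, and 3.27 for sums of counts divided by size factors). Tac1 had 52 counts in 3xTg (1.42 CPM) and 0 in WT, at least 16.1-fold higher against a floor of 3 counts over the WT cells (log2 4.01). After thinning to equal totals, which also left out 2 3xTg and 5 WT cells, the log2 value was 3.23. A difference of 2-fold or more was thus passed by 2 members, Penk and Tac1, both counted in fewer than 14 cells. Of the 15958 genes with more than 3 counts in a genotype 33.8% passed it, 15.6% higher and 18.2% lower in 3xTg. Of the 3 members counted in at least 14 cells 0 passed it, where 19.3% of such genes did, 8.82% higher and 10.5% lower. In Penk 62.3% of the 3xTg sum came from 3xTg 29, and in Tac1 96.2% from 3xTg 38. Without the highest cell of each genotype Tac1 had 2 counts in 3xTg, under the floor, and Penk had 0 in WT.

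The log scale gave another order. The difference of the mean log2(normalized count + 1), 3xTg minus WT, was 0.18 for Cck (6.26 ± 3.04 against 6.08 ± 3.12, SD across cells), 0.69 for Grp (4.50 ± 3.83 against 3.80 ± 3.76) and -0.23 for Adcyap1 (0.96 ± 2.10 against 1.19 ± 2.28). It was 0.17 for Cartpt, 0.56 for Penk and 0.23 for Tac1. Each was smaller than the SD across 3xTg cells. The median over the 11414 genes was 0.44 on this scale and -0.05 for the log2 ratio of summed counts. Relative to that median gene the differences were -0.26 for Cck, 0.26 for Grp, -0.67 for Adcyap1, -0.27 for Cartpt, 0.12 for Penk and -0.21 for Tac1.

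Grp, Adcyap1 and Cartpt turned direction between the label runs. Between the first runs (3xTg 24 to 55, WT 1 to 22) the log2 ratio of summed counts was 0.48 for Grp, 2.04 for Adcyap1 and -1.48 for Cartpt. Between the second runs (3xTg 76 to 92, WT 57 to 74) it was -1.07, -2.77 and 1.26. Penk was at 0 in WT 1 to 22 and had a log2 ratio of -0.67 in the second runs. Adcyap1 was counted in 2 of 17 and 6 of 15 cells of the 2 longer WT runs, and Grp in 15 of 21 and 5 of 12 cells of the 3xTg runs. The part of the runs in these values was not tested.

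The machinery that makes and stores peptides was broadly counted. All 11 processing enzymes and their partners had a count, 5 of them in at least 80% of cells (18.2% of all genes with a count were). The median log2 ratio was 0.08 over the 10 of them counted in at least 14 cells. Pam, the amidating enzyme, was counted in 68 of 68 cells (47 CPM in 3xTg, 52.4 CPM in WT). Pcsk1n, the inhibitor proSAAS of convertase 1, was counted in 66 cells (551 and 345 CPM) and convertase 2, Pcsk2, in 65 (289 and 214 CPM). Convertase 1, Pcsk1, was counted in 45 cells and carboxypeptidase Cpe in 65. The list had 1 gene past 2-fold, the Golgi convertase Furin, with 49 counts in 3xTg and 191 in WT (log2 ratio -2.07), of which 70% lay in 3 cells. Over all genes counted in at least 14 cells 19.3% passed 2-fold. Carboxypeptidase D, Cpd, had a log2 ratio of -0.45. The difference of the mean log2(normalized count + 1) was 1.22 for Pcsk1n, 1.18 for Pcsk2, 0.35 for Cpd, 0.32 for Pam and -0.38 for Furin. The median gene had 0.44.

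All 9 genes of dense-core vesicles were counted in at least 14 cells, 6 of them in at least 80% of cells (18.2% of all genes with a count were). In summed counts 0 of the 9 passed 2-fold, where 19.3% of genes in at least 14 cells did. Secretogranin 2, Scg2, was counted in 68 cells at 2237 and 1991 CPM. Cadps2, a priming factor of vesicle release, was counted in 32 3xTg and 28 WT cells (256 and 182 CPM). The log2 ratio was 0.55 for chromogranin B (Chgb), -0.45 for the vesicle membrane protein Ptprn and -0.63 for Cadps. Vgf, a granin-like precursor, had a share of 48.5% in 3xTg and 22.9% in WT and was the 1 gene of the list past 20 points. The log scale gave larger values here too. The difference of the mean log2(normalized count + 1), 3xTg minus WT, was 2.07 for Cadps2, 1.63 for Chgb and 1.30 for Vgf. It was 0.62 for Ptprn, 0.52 for Scg2 and 0.30 for Cadps, and 0.44 for the median gene. The paper lists Cadps2 among its genes higher in 3xTg.

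Of the 5 peptidases that degrade or trim peptides, Ece1 was counted in 68 cells (126 and 163 CPM) and Ece2 in 38. The share of cells with Thop1 was 48.5% in 3xTg and 17.1% in WT. Its sums were 23.0 and 11.3 CPM (log2 ratio 1.03). Nln had a log2 ratio of -0.62. Mme, neprilysin, was counted in 2 and 7 cells with a log2 ratio of -1.38, and 65.7% of its counts lay in 3 cells. The background of 16.7% of genes at least 20 points higher in 3xTg applies to Thop1, to Vgf and to the receptors Ntsr1 and Ntsr2.

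Of 18 receptor genes for the members' peptides, 4 had no count (Cckbr, Galr1, Galr2, Vipr1) and 11 were counted in at least 14 cells. Of all genes listed as protein-coding, 26.2% had no count, and 11414 of the 17940 genes with a count were counted in at least 14 cells. The PACAP receptor Adcyap1r1 (68 and 47.5 CPM in 3xTg and WT) and the substance P receptor Tacr1 (38.9 and 57.5 CPM) were counted in all 68 cells. Adcyap1 was counted in 15 and Tac1 in 3 cells, so these receptor transcripts were also counted in cells with no count of the peptide transcript. A receptor counted in all 68 cells gives this for any peptide not counted in every cell. The neurotensin receptor Ntsr1 was counted in 29 of 33 3xTg cells (87.9%, 139 CPM) and 20 of 35 WT cells (57.1%, 87.5 CPM), while its ligand Nts was at 0. The difference of the mean log2(normalized count + 1) was 2.15 for Ntsr1, 0.83 for Adcyap1r1, 0.81 for Ntsr2, -0.45 for Cckar and -0.46 for Tacr1. The median gene had 0.44. Ntsr2 was counted in 14 3xTg and 6 WT cells, yet its sum was lower in 3xTg (16.6 against 52.9 CPM, log2 ratio -1.67), with 68.4% of its counts in 3 cells. The astrocyte genes Slc1a3 (431 counts in 3xTg, 4428 in WT) and Gja1 (26 and 1104) had lower sums in 3xTg too, and their part in the value of Ntsr2 was not tested. The CCK receptor Cckar was counted in 36 cells at low level (32 counts in 3xTg and 166 in WT, log2 ratio -2.48, 65.2% of the counts in 3 cells). It was counted in 29 of 58 Cck cells (50.0%) and in 7 of 10 without Cck. The dynorphin receptor Oprk1 was counted in 48 cells at 141 and 142 CPM.

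**Figure D5:**
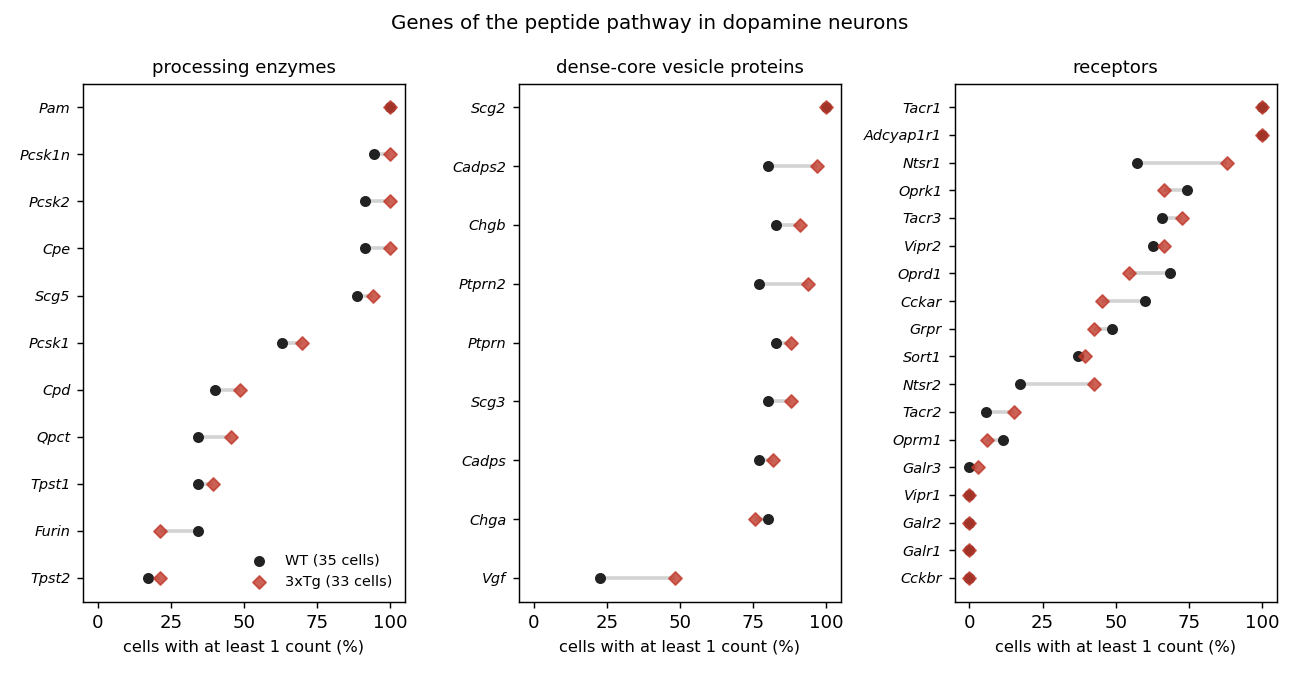
Share of cells (in percent) with at least 1 count of each gene in 35 WT cells (black circles) and 33 3xTg cells (red diamonds), for processing enzymes, dense-core vesicle proteins and receptors. Ntsr1, Ntsr2 and Vgf were the genes of these lists with 20 points or more between genotypes, all 3 with the higher share in 3xTg, a difference that 16.7% of the genes in at least 14 cells had in this direction.

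The genes whose levels over the 68 cells were most like those of Cck were Atp1b1, a subunit of the sodium pump (Spearman rho 0.62), the adhesion gene Nptn (0.55) and the glutamate transporter Slc1a2 (0.55), best known from astrocytes and counted here in all 68 cells. For Grp the closest genes were the G protein-coupled receptor Gpr83 (rho 0.62, counted in 30 of the 40 Grp cells), the GDNF co-receptor Gfra1 (0.60) and Gkn1 (0.57, counted in 18 cells). For Adcyap1 they were Lpl (0.55), Neurod6 (0.54) and Slc17a6 (0.51), all genes of the subtype list. The median rho over all genes was -0.02 for Cck, 0.03 for Grp and 0.06 for Adcyap1. By Pearson's r, 1 of the 3 genes was kept for Cck, 2 for Grp and 3 for Adcyap1. These genes were picked as the highest of 11414, so their rho is a description.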

How the data were processed

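RNA of 68 single VTA neurons was captured by poly-A selection, amplified by 28 cycles of PCR and sequenced. With Strand NGS, the authors trimmed adapters and read ends, mapped reads to RefSeq transcripts of mm10, discarded duplicates and deposited estimated counts per gene, of which 55.3% of the values above 0 were not whole (tolerance 0.001). The deposited log2 values had been normalized by the authors with DESeq2 and shifted per gene, and served as an alternative. Counts carry no stated molecular identifiers, so they are not molecules and all intervals cover counting error only. Totals of 492505 to 1678624 counts per cell set the depth.

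Groups came from the labels. Size factors were the median of ratios over the 787 genes counted in every cell. Sums used counts rounded to whole numbers, as counts per 1000000 (CPM), with exact intervals at 95%. A fold against 0 used a floor of 3 counts over the group. Levels per kb used GENCODE M21 exon lengths. With 1 sample per genotype no p-value was computed. The 10 genes and all lists were chosen with earlier results of these data known. From each list, the text names the 2 genes counted in most cells and, at 100 or more summed counts, the 2 highest and 2 lowest log2 ratios, plus the 3 genes most like each member counted in at least 14 cells. Other genes, among them Cpe, Pcsk1, Oprk1, Adm, the subtype markers Aldh1a1, Otx2 and Tacr3, and Gad1, Gad2 and Slc32a1, were named after their values were seen. Calculations were tested on simulated data. No cells were clustered, doublets were not called, and 0 deposited columns were left unmapped. Python 3.11.15, numpy 2.4.6, scipy 1.17.1, pandas 2.3.3, R 4.3.3 and edgeR 4.0.16 (TMM factors) were used.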

Additional observations from a re-analysis of the deposited data

How the results depend on the processing

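With 1 sample per genotype, all ranges here describe cells. The 2 members past 2-fold between genotypes (Penk, Tac1) were 4 between the first label runs (with Adcyap1 and Cartpt) and 1 (Penk) without the highest cell of each genotype. Between the second label runs they were 3 others (Grp, Adcyap1, Cartpt). The 0 members past 20 percentage points were 2 between the second label runs (Adcyap1, Cartpt). The log2 ratio of Penk turned to -0.67 in the second runs. The causes were not tested. The number of members with over 50% of their counts in 3 cells was 2 to 4 in place of 3. Penk and Tac1 were among them in each alternative run (thinning to 700471 counts, other normalizations, no cells with another type's marker, label runs, no highest cells), whereas Adcyap1 was lost with TMM factors, with CPM and without the highest cells. Cartpt came in with all alternatives but TMM factors and CPM. Of 99 log2 values of members under alternatives, 11 had the other sign, 5 of them of Adcyap1, whose main ratio was -0.00, 2 each of Grp and Cartpt, and 1 each of Cck and Penk. Without the 10 cells with a marker of another type the log2 ratio of Grp was -0.01. The pairs at a minimum of 10 counts were chosen after seeing the data. No paired analysis was possible because the genotypes share no label number. A single cell holds most of the counts of Penk and of Tac1.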

Other observations

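Of 39 further neuropeptide genes, 10 had no count in any cell, against 26.2% of all protein-coding genes, and 6 were counted in at least 14 cells. Pnoc, the precursor of nociceptin, was counted in 48 of 68 cells, at a low level of 3.70 CPM in 3xTg and 3.97 CPM in WT. Ucn2, a urocortin, followed with 29 cells and 37 and 40 counts. Npw, the precursor of neuropeptide W, was counted in 12 of 33 3xTg cells (36.4%) and 3 of 35 WT cells (8.57%), a 20-point gap that 16.7% of genes in at least 14 cells had, with sums of 21.2 and 3.12 CPM (log2 ratio 2.77). Nms, neuromedin S, was counted in 10 and 3 cells (33.5 and 3.59 CPM, log2 ratio 3.22), with 87.9% of its counts in 3 cells. Pomc, the precursor of melanocortins and beta-endorphin, was counted in 9 and 13 cells at 6.54 and 28.3 CPM (log2 ratio -2.12). Prok2 had 5.88 and 13.1 CPM (log2 ratio -1.15), with 66.7% of its counts in 3 cells. Of all 11414 genes counted in at least 14 cells, 8.82% were at least 2-fold higher and 10.5% at least 2-fold lower in 3xTg. For Nms, counted in 13 cells, the shares over the 15958 genes with more than 3 counts in a genotype apply, 15.6% and 18.2%. Adm, named after its values were seen, was counted in 7 3xTg and 16 WT cells (21.2% and 45.7%), and 0.587% of genes were 20 points lower in 3xTg, but its sums were 35 and 30 counts.

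Among the subtype markers, the sums of Slc17a6 were 15 CPM in 3xTg and 35.4 CPM in WT (log2 ratio -1.24), although 8 3xTg and 6 WT cells had it, and 72.4% of its counts lay in 3 cells. Ndnf was counted in 11 and 12 cells with a log2 ratio of -1.36, and Calb1 in 66 of 68 cells with a log2 ratio of 0.63. The difference of the mean log2(normalized count + 1) was 1.87 for Calb1, 0.38 for Slc17a6 and -0.06 for Ndnf, and 0.44 for the median gene.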
